A study of Homo sapiens with 3 samples.

Results

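The regions described here are the ribosomal DNA arrays on the short arms of the 5 human acrocentric chromosomes, 13, 14, 15, 21 and 22. The members were all H3K27me3 peaks that overlapped, by at least 1 bp, 5 windows of the T2T-CHM13 assembly fixed by coordinates. These windows hold 9.93 Mb. They ran on chromosome 13 from 5770001 to 9350000, on chromosome 14 from 2100001 to 2820000, on chromosome 15 from 2510001 to 4710000, on chromosome 21 from 3110001 to 5610000 and on chromosome 22 from 4790001 to 5720000. In all, 2243 of 286886 peaks were members, 61 of the 181157 peaks of the control list and 2182 of the 105729 peaks of the siORCA list.

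Ribosomal DNA holds the genes for the large ribosomal RNAs in tandem copies. In each copy a transcribed region, which gives the precursor of the small-subunit, 5.8S and large-subunit RNAs, is followed by a long intergenic spacer. The arrays form the nucleolus, and a part of the copies is usually kept silent in packed chromatin. H3K27me3, trimethylation of lysine 27 of histone H3, is placed by Polycomb repressive complex 2 and marks repressed genes and domains. ORCA is a protein bound to the origin recognition complex, and the series asks, by its title, how it stabilizes Polycomb complexes.

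The study used U2OS, an osteosarcoma line, and ChIP-seq with single-end reads of 101 cycles. One ChIP library came from cells transfected with a control (Gl3) and 1 from cells transfected with siORCA, the agent directed at ORCA. An input library, from cells whose treatment is given as none, completes the 3 samples and was not analysed here. The 3 libraries belonged to 1 batch and shared the fixation in 1% formaldehyde for 10 min. With 1 library per condition there is no replicate check, and no difference between the conditions was tested. Whether ORCA was lowered cannot be read from peak lists.

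The peak lists give no read depth, and the depth is not given in the sources used here. Summed over all chromosomes, the control peaks covered 206.8 Mb and the siORCA peaks 92.5 Mb (0.447 of the control). The fold of a peak is its height relative to background, taken from the authors' list; its median was 2.73 in the control list and 3.29 in the siORCA list. Apart from alternatives that limit both lists by fold or q, these values are used only to describe peaks within 1 list. The copies of an array are nearly identical in sequence, so most reads from one copy can align equally well to others. How such reads were placed is not given in the sources used here. The copies of the reference therefore share reads and are not independent of each other. The number of ribosomal copies in U2OS may also differ from that of the assembly.

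In each of the 5 arrays siORCA peaks lay along the whole length and control peaks were few. Control peaks covered 17.9 kb of the arrays (0.181%) and siORCA peaks 1405 kb (14.1%), a ratio of 78.4. The rest of the first 10 Mb of the same chromosomes went the other way. Control peaks covered 8.28 Mb there and siORCA peaks 3.90 Mb, a ratio of 0.472. The windows were proposed with an earlier scan of these lists known, which had picked the same stretches because siORCA peaks were frequent there and control peaks rare. The size of this difference is therefore a description of these libraries and supports nothing further. Depth and the placement of reads that align to many copies were not tested as parts of it.

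**Figure D1:**
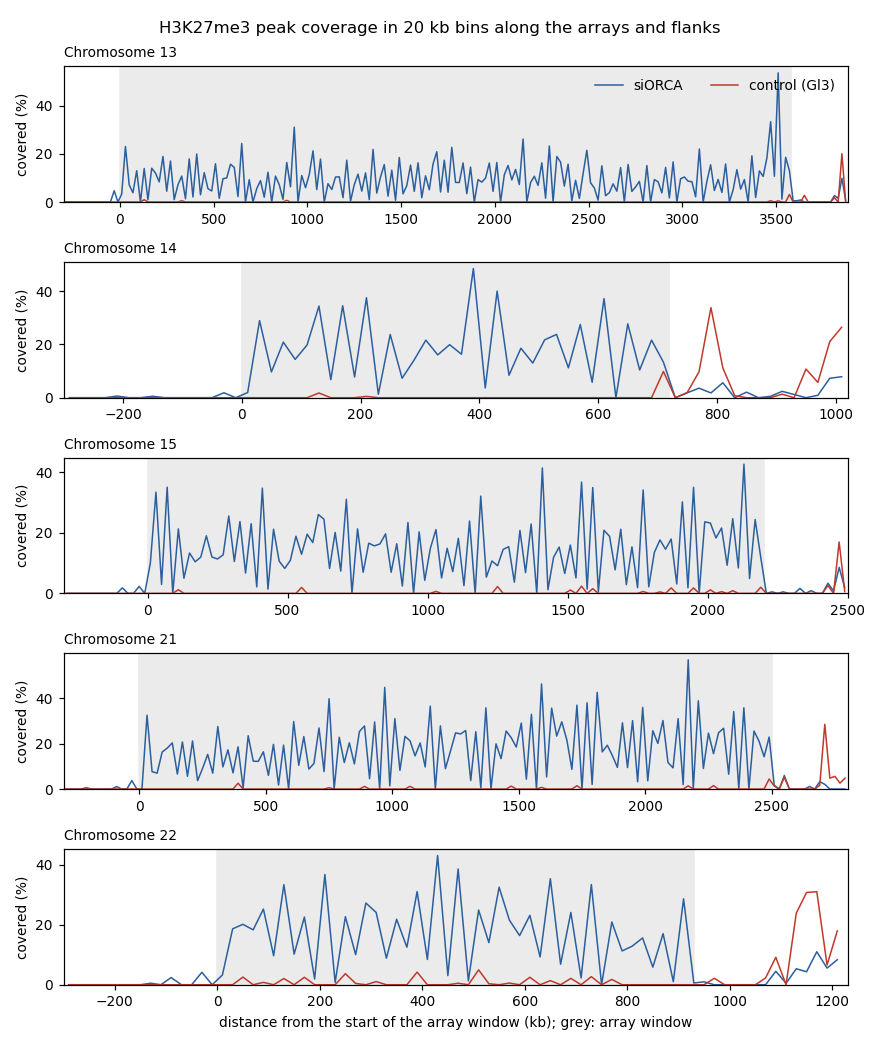
Share of each 20 kb bin covered by H3K27me3 peaks (y axis, percent) against distance from the start of the array window (x axis, kb), for the control (Gl3) and siORCA lists. The grey area is the window and 300 kb on each side is shown. Inside the windows siORCA coverage moves up and down through the whole array, from 9.52% on chromosome 13 to 18.6% on chromosome 14 as a mean, while control coverage stays at 0.734% or less as a mean.

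Chromosome 13 has the longest array, 3.58 Mb. It held 8 control peaks and 688 siORCA peaks, which covered 1.27 kb and 340.8 kb. The siORCA coverage of 9.52% was the lowest of the 5 arrays. Chromosome 14 has the shortest, 0.72 Mb, with 5 control peaks over 2.42 kb and 181 siORCA peaks over 133.9 kb (18.6%). On chromosome 15, 18 control peaks covered 4.11 kb and 520 siORCA peaks covered 324.6 kb (14.8%). On chromosome 21, 10 control peaks covered 3.31 kb and 558 siORCA peaks covered 443.4 kb (17.7%). Chromosome 22 held the most control peaks, 20 over 6.83 kb (0.734% of the window), beside 235 siORCA peaks over 162.4 kb (17.5%). Control peaks thus lay unevenly among the arrays, at 2.23 per Mb on chromosome 13 and 21.5 per Mb on chromosome 22. The siORCA peaks lay more evenly, at 192.2 to 252.7 per Mb.

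The edges of the arrays were sharp in the siORCA list. In the 300 kb before the windows, on the side of the telomere, siORCA peaks covered 0.202% to 0.471% and the control list held 0 peaks on each of the 5 chromosomes. In the 300 kb after the windows the control was covered over more length than siORCA on every chromosome. The values there were 1.64% and 1.11% on chromosome 13, 8.19% and 2.34% on chromosome 14, 1.34% and 1.21% on chromosome 15, 3.64% and 0.945% on chromosome 21, and 9.87% and 3.00% on chromosome 22. In covered length the direction thus changed within 300 kb after the end of each array. By number of peaks siORCA stayed higher there on chromosomes 13 (13 against 10) and 15 (10 against 7). The control held more peaks on chromosomes 14, 21 and 22.

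For the setting of these values among all chromosomes, covered length was compared in 100 kb bins with at least 1 kb covered in either list. Of 19721 such bins, 591 (3.00%) were covered in siORCA over at least 2 times the control length, and 79.8% went the other way by as much. All 96 bins that lay wholly inside the arrays were among the 591, and 0 of them were among the bins higher in the control. In the arrays, siORCA peaks covered from 5.99 to 27.02 kb of a bin with a median of 14.3 kb, and control peaks from 0 to 1.67 kb. In 61 of the 96 bins the control list held 0 bases. Among the remaining bins in the first 10 Mb of the 5 chromosomes, 11 of 305 passed the limit in favour of siORCA. A stricter pair of limits, set after the values were seen, asked for at least 5 kb in siORCA and under 2 kb in the control. It was passed by 126 bins (0.639%), of which 96 lay inside the arrays, 3 crossed an array edge and 27 lay elsewhere. The array bins share copies of one sequence and their windows were chosen in view of this contrast, so the counts describe where the bins lie and are no test.

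**Figure D2:**
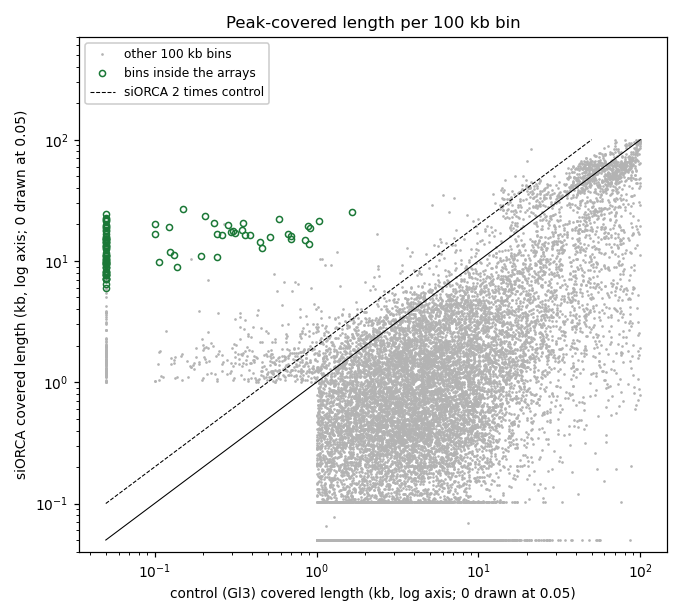
Length covered by peaks in 100 kb bins, control (Gl3) on the x axis and siORCA on the y axis, both in kb on log axes with 0 drawn at 0.05. Green circles are the 96 bins inside the arrays and grey points the other bins; the solid line marks equal length and the dashed line 2 times the control. The green circles all lie above the dashed line, between 5.99 and 27.02 kb in siORCA.

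The array peaks were not strong ones within the siORCA list. Their median fold was 3.26, against 3.29 for the whole list, and their median −log10 q was 1.60 against 1.73. A −log10 q of at least 2 was reached by 21.4% of them, against 33.6% of the list, and a fold of at least 4 by 3.44% against 7.44%. Their median width was 440 bp, against 414 bp. The control list went the other way in q. The 61 control peaks had a median −log10 q of 2.20, against 1.78 for that list, and 57.4% of them reached 2, against 35.9%. They were narrow, with a median width of 233 bp against 515 bp. The arrays thus held many weak siORCA peaks and a small number of control peaks. Pooled, a greater share of these control peaks than of their list passed the stricter limit.

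Almost every control peak of the arrays overlapped a siORCA peak. The share over the whole control list is not set beside this count. The count therefore does not show whether such overlap is particular to the arrays. In the part of the unit where 60 of the 61 control peaks lay, described below, siORCA peaks covered 59.7% of the length. Of the 61 control peaks, 60 overlapped a siORCA peak by at least 1 bp, and 85.9% of the control length lay under siORCA peaks. In the reverse direction, 57 of 2182 siORCA peaks and 1.10% of the siORCA length lay under control peaks. The single control peak without overlap was on chromosome 15 (3530488 to 3530619). It had a fold of 2.59 and a −log10 q of 1.25. On chromosomes 13, 14, 21 and 22 all control peaks overlapped, 8, 5, 10 and 20 of them.

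The siORCA peaks recurred at a regular distance, which gives the length of the repeat unit. It was taken as the lag of 30 to 60 kb with the highest autocorrelation of siORCA coverage, refined to the length that gave the folded coverage its largest variance. Chromosome 13 had a unit of 46.97 kb and chromosome 14 one of 44.27 kb. The unit was 43.95 kb for chromosome 15, 44.39 kb for chromosome 21 and 43.38 kb for chromosome 22. The unit of chromosome 13 was the longest and that of chromosome 22 the shortest. The name of these regions rests on their coordinates; a repeat near 45 kb, the length of a ribosomal unit, was found in each of the 5 windows. The windows hold 76.2, 16.3, 50.1, 56.3 and 21.4 such units in the same order.

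Position within the unit was first read as the distance from the window start modulo this length, chromosome by chromosome. The peaks of each array gathered in one part of the unit. Both the unit length and the densest 10 kb were chosen on siORCA coverage. A share of siORCA length above the stretch's part of the unit was thus fixed in advance, and the shares are descriptions. On chromosome 13, the densest 10 kb of the unit, which is 21.3% of its length, held 55.0% of the siORCA peak length, from 34.9 to 44.9 kb. On chromosome 14 it held 51.9%, from 31.6 to 41.6 kb, and on chromosome 22 56.0%, from 38 kb over the end of the unit to 4.7 kb. On chromosome 21 it held 48.2%, from 36.8 kb over the end to 2.5 kb. Chromosome 15 was the least concentrated, with 42.9% from 7.9 to 17.9 kb. The numbers from different chromosomes cannot be set side by side, since each window starts at another point of the unit. The densest 10 kb, placed from siORCA peaks alone, held 47 of the 61 control peaks by their midpoints. These were 8 of 8 on chromosome 13, 4 of 5 on chromosome 14, 7 of 18 on chromosome 15, 8 of 10 on chromosome 21 and 20 of 20 on chromosome 22. By midpoints, the same stretches held 340 of 688 siORCA peaks on chromosome 13 and 73 of 181 on chromosome 14. They held 207 of 520 on chromosome 15, 239 of 558 on chromosome 21 and 99 of 235 on chromosome 22. On chromosome 15 the control peaks were thus no more gathered there than the siORCA peaks.

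Segments of 1 kb showed how often a position was marked from copy to copy. On chromosome 14 the segments from 27 to 28 kb, 37 to 38 kb and 38 to 39 kb held siORCA peaks in 16 of 16 copies. On chromosome 22 the segments from 34 to 35 kb, 40 to 41 kb and 42 to 43 kb did so in 20 of 21 copies, and the last of these held control peaks in 14 copies. On chromosome 13 the most frequent was 44 to 45 kb, in 70 of 76 copies. On chromosome 21 it was 43 to 44 kb, in 50 of 56 copies. On chromosome 15 the most frequent, 13 to 14 kb, was marked in 38 of 50 copies.

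A single unit length could not follow the array of chromosome 15. The copies were therefore also aligned one by one to the folded siORCA profile of chromosome 14, with starts 38 to 50 kb apart. This step was chosen after the folded profiles had been seen and used siORCA peaks alone. It placed 219 copies in the windows, 76 on chromosome 13, 16 on 14, 50 on 15, 56 on 21 and 21 on 22. The last copy of each array was set at the lower limit of 38 kb, so these 5 copies may be cut short and the positions of peaks after them are uncertain. The median distance between starts was 47.0, 44.3, 43.9, 44.45 and 43.5 kb. The copies of each array were split along the chromosome into 3 parts of nearly equal number. On chromosome 15 the distance was 42.6 kb in the first part, 43.9 kb in the middle part and 44.95 kb in the last part. On chromosome 21 it was 44.7, 44.4 and 44.35 kb. After this alignment the densest 10 kb on chromosome 15 held 54.8% of the siORCA length, close to the shares of 49.1% to 56.3% on the other chromosomes.

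In aligned copies one position is taken to stand for the same part of the unit in every array. This was assumed and not tested, since copies were placed by siORCA coverage alone and no sequence was used. Copies differ in length between and within arrays, so positions may be shifted inside a copy. The mean profiles have a fixed length, and the last part of longer copies, as on chromosome 13, is not in them. The crests, empty run and span given below rest on the assumption of shared positions. Position 0 is the middle of the longest nearly empty run of the chromosome 14 profile, and positions rise with the chromosome coordinate. Which part is transcribed and which is spacer was not assigned here, since no annotation of T2T-CHM13 was used. The copies of the 5 arrays were all placed in the same direction, and their mean profiles had a similar outline. Over 442 bins of 100 bp, the correlation with the chromosome 14 profile was 0.838 for chromosome 13, 0.904 for 15, 0.923 for 21 and 0.918 for 22. Read backwards at the best shift it was from 0.435 to 0.679 for the same chromosomes. The bins share 1 library and the copies were placed to match this profile, so these are descriptions. The backward reading used copies placed forwards, which favours the forward value, so the direction of the arrays was not tested.

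**Figure D3:**
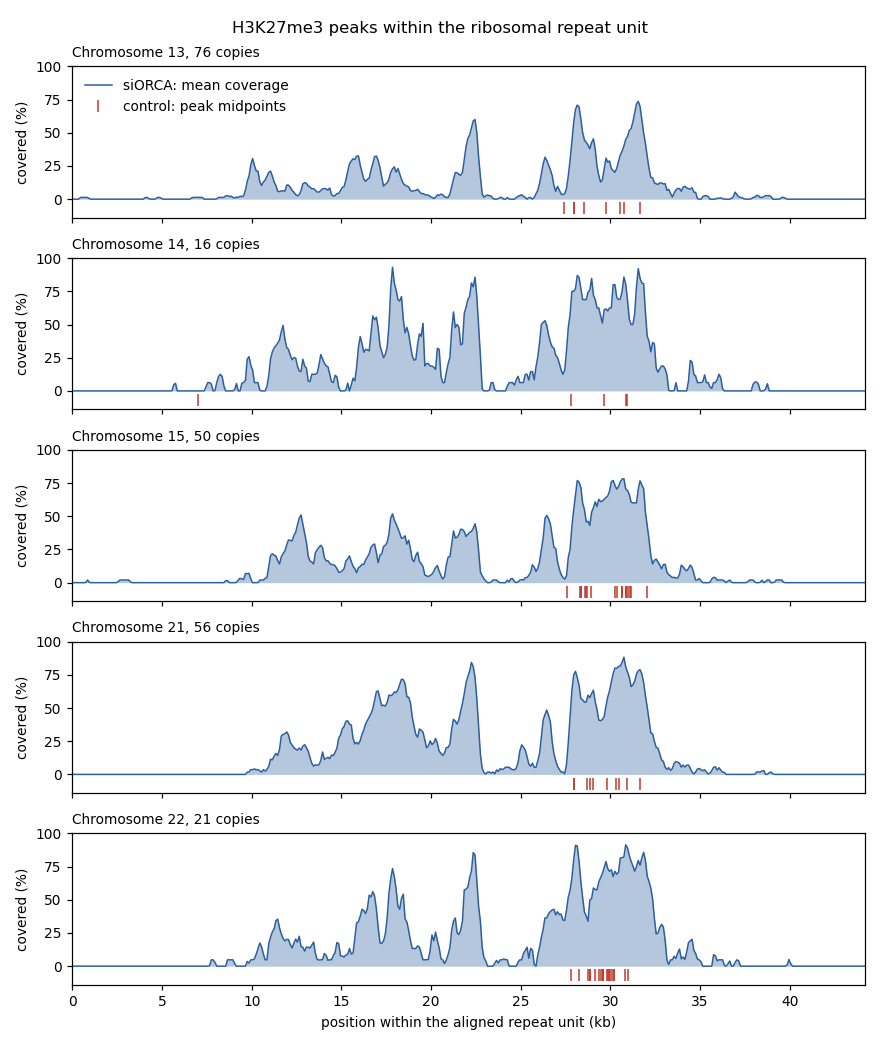
Mean siORCA coverage over copies (y axis, percent) against position within the aligned unit (x axis, kb) for the copies of each array, with the midpoints of control peaks as red marks below. Each of the 5 arrays has crests near 22 kb and 28 kb and a broad block up to about 32 kb, and 60 of 61 control marks lie between 27.4 and 32.0 kb.

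The unit had an empty part and a marked part. The longest run with a mean siORCA coverage under 2% over the 5 arrays was 13.5 kb long, from 38.8 kb over the end of the unit to 8.1 kb. It held 15 of 2182 siORCA peaks (0.687%) and 1 control peak, on chromosome 14 after its last copy, where positions are uncertain. The siORCA peaks were 6 on chromosome 13, 3 on 14, 3 on 15, 1 on 21 and 2 on 22. From 10 to 15 kb the mean coverage of the 5 arrays was 15.3%, and from 15 to 20 kb it was 29.8%. It was 19.4% from 20 to 25 kb, 37.1% from 25 to 30 kb and 35.2% from 30 to 35 kb. It fell to 1.36% from 35 to 40 kb. The segment from 25 to 30 kb held a siORCA peak in 219 of 219 copies and that from 30 to 35 kb in 218. The other marked segments came near this, with 217 copies from 15 to 20 kb, 214 from 20 to 25 kb and 194 from 10 to 15 kb.

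Within the marked part, crests were read as the highest bin of set intervals. These were 15 to 20, 20 to 24, 25 to 27, 27 to 29 and 29 to 33 kb. Each interval always has a highest bin, and copies were placed to match the chromosome 14 profile. That narrow crests lay at nearly the same positions was thus partly fixed by the placement and is a description. The height of a crest is the coverage of its 100 bp bin as a mean over the copies. A crest near 22 kb lay at 22.45 kb on chromosomes 13, 14 and 15, at 22.25 kb on 21 and at 22.35 kb on 22. Its height was 60%, 85.6%, 44.3%, 84.3% and 85.5% on chromosomes 13, 14, 15, 21 and 22. A lower crest lay between 26.35 and 26.85 kb, with heights of 31.6%, 52.9%, 50.6%, 48.5% and 42.9% in the same order. A crest near 28 kb lay at 28.15 kb on chromosomes 13, 14 and 15 and at 28.05 kb on 21 and 22, with heights of 70.9%, 86.9%, 76.9%, 77.6% and 91.0% in the same order. The block after it had its highest point at 31.55 kb on chromosomes 13 and 14 and at 30.75 to 30.85 kb on 15, 21 and 22. A crest between 15 and 20 kb was the most variable. It reached 93.1% on chromosome 14 at 17.85 kb and 32.5% on chromosome 13 at 15.95 kb.

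The control peaks were confined to one stretch of the marked part, apart from 1 peak. By their midpoints, 60 of 61 lay between 27.4 and 32.0 kb, a span of 4.60 kb or 10.4% of the unit. The medians of the 5 arrays lay at 29.1 kb on chromosome 13, 29.6 kb on 14, 30.3 kb on 15, 29.4 kb on 21 and 29.6 kb on 22. The remaining peak ran from 2818257 to 2818718 on chromosome 14 and had a fold of 4.21. It lay after the last copy set by the alignment, 1.28 kb before the end of its window. The alignment put it at 6.99 kb within the unit. This position is uncertain, since the last copy was set at the lower limit of 38 kb. Of the siORCA peaks, 596 of 2182 (27.3%) had their midpoints in the same span, where the mean siORCA coverage was 59.7%. The crests near 18 and 22 kb held 0 control peaks, although each of them was at least 50% high in siORCA on 4 of the 5 arrays. The ends of the span come from the control peaks themselves, but the positions were fixed by the siORCA list alone.

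Pooled over the 5 arrays, the siORCA peaks of that span had a median fold of 3.39, against 3.21 for the 1586 siORCA peaks outside it. The median was higher inside the span on each of the 5 arrays, from 3.38 against 3.26 on chromosome 21 to 3.61 against 3.20 on chromosome 22. Segments without control peaks could hold folds as high. On chromosome 21 the median siORCA fold was 3.36 from 15 to 20 kb, with 0 control peaks, and 3.23 from 25 to 30 kb, with 6. The highest siORCA fold within the copies of chromosome 22, 5.79, lay between 20 and 25 kb, also with 0 control peaks. Over the 5 arrays together, the median width was 677 bp inside the span against 393 bp. Of the peaks inside it, 31.5% reached a −log10 q of 2, against 17.5%. By array the contrast in q ran from 21.4% against 20.1% on chromosome 14, nearly equal, to 60% against 17.8% on chromosome 22. The span was read from the control list, and the fold of siORCA peaks did not enter its choice. Their width did enter the positions, since copies were placed by siORCA coverage. The contrast in width is therefore not independent of the alignment, and fold and q were not compared here at equal width. Peaks of 1 list share their library, and no test over samples was possible.

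**Figure D4:**
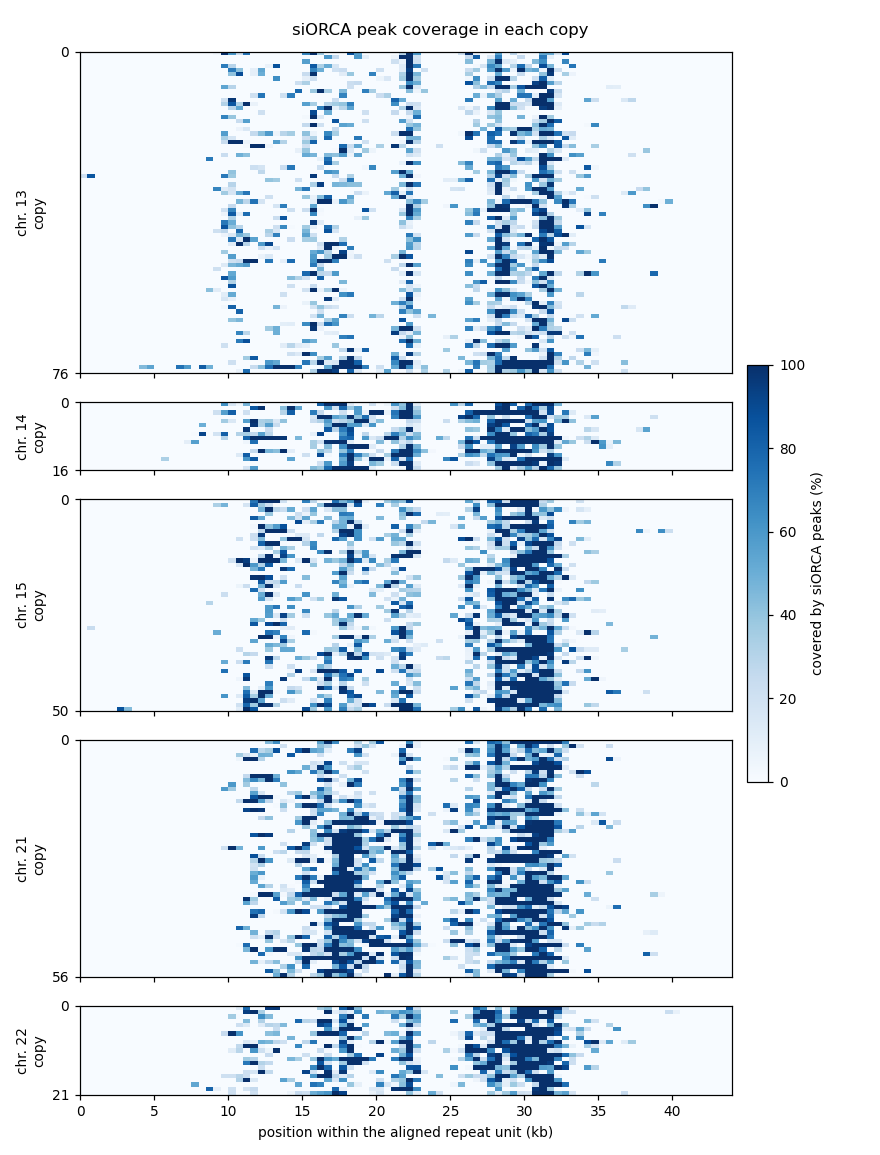
Share of each 500 bp of the aligned unit covered by siORCA peaks (colour, 0 to 100%), with 1 row per copy in the order along the chromosome (y axis) and position within the unit on the x axis (kb). The dark columns near 22, 28 and 31 kb run through the 5 arrays, and the left and right edges are nearly white in all but a few of the 219 copies.

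Copies differed in how much of them was covered. The siORCA list held peaks in every one of the 219 copies, and the control list in 49. On chromosome 13, the length covered by siORCA peaks per copy ran from 1.85 to 13.1 kb with a median of 4.13 kb. On chromosome 14 it ran from 6.32 to 12.96 kb with a median of 7.93 kb. On chromosome 15 it ran from 3.65 to 10.53 kb with a median of 6.40 kb. On chromosomes 21 and 22 the medians were 7.90 and 7.80 kb, with ranges of 4.24 to 11.8 kb and 4.59 to 10.8 kb. A typical copy on chromosome 13 thus carried less peak length than one on the other arrays, although the ranges overlapped. The number of siORCA peaks in a copy differed less, with medians of 9 on chromosome 13, 11 on 14, 10 on 15, 10 on 21 and 11 on 22.

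**Figure D5:**
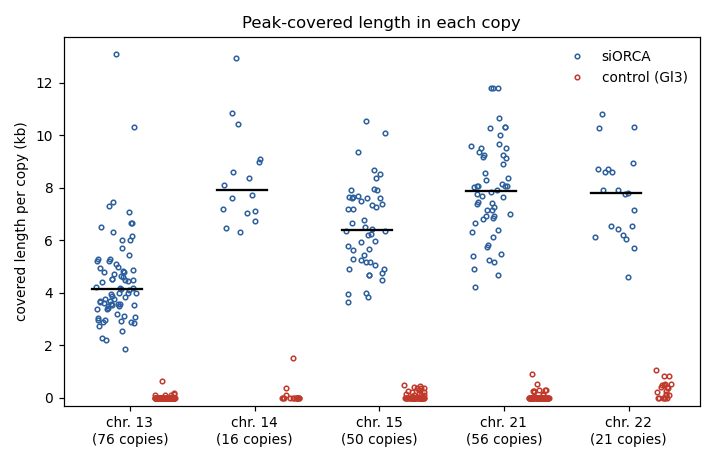
Length covered by peaks (y axis, kb) in each copy, by chromosome, for siORCA (blue, with the median as a black bar) and the control (red). Medians for siORCA run from 4.13 kb on chromosome 13 to 7.93 kb on chromosome 14, and most control points lie at 0.

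Some differences followed the position of a copy in its array. On chromosome 13, the most covered copies were the 75th and the 74th of 76, with 13.1 and 10.3 kb of siORCA peaks, and the next was the 20th with 7.47 kb. The widest siORCA peak of that array, 4065 bp from 9285624 to 9289688, lay at this end, as did 5 of its 8 control peaks. The peak with the highest fold of that array, 5.18, lay there too, from 9334381 to 9334687. On chromosome 21, siORCA coverage of the segment from 15 to 20 kb was 25.4% in the first part of the copies, 56.1% in the middle part and 52.2% in the last part. The segment from 25 to 35 kb varied less there, with 34.6%, 36.3% and 38.9%. On chromosome 15, the segment from 15 to 20 kb was covered over 25.6%, 14.7% and 26.9%.

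Control peaks were not spread evenly along chromosome 15. The first and the middle part of its copies held 2 control peaks each and the last part 14, in 11 of 16 copies. The median distance between copies was also the longest in that last part. The siORCA coverage of the segment from 25 to 35 kb was 32.8%, 34.8% and 39.4% along the array. On chromosome 22 the control list marked 15 of 21 copies, 6, 5 and 4 in the 3 parts of the array. Chromosomes 15 and 22 together held 38 of the 61 control peaks on 3.13 of the 9.93 Mb. On chromosome 13 the control list marked 6 of 76 copies, on 14 it marked 3 of 16 and on 21 it marked 10 of 56.

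The 20 control peaks of chromosome 22 lay in 15 of its 21 copies. The 3 widest, of 824, 710 and 542 bp, ran from 5049263 to 5050086, from 5179377 to 5180086 and from 5526398 to 5526939. Their folds were 3.41, 2.91 and 3.37, and siORCA peaks covered 100%, 95.4% and 100% of them. The median fold of the 20 control peaks there was 3.20, the highest among the 5 arrays. On chromosome 21 the 10 control peaks were weaker, with a median fold of 2.59 and a highest fold of 2.87. Of those 10, 5 had the fold of 2.59 and −log10 p of 2.821 that are the commonest pair of values in the control list.

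On chromosome 13, apart from the end described above, the control peaks lay from 5905162 to 5905354, from 6092926 to 6093032 and from 6656836 to 6656972, with folds of 2.84, 3.15 and 2.61. siORCA peaks covered them in full. On chromosome 14 the control peak with the highest −log10 q of all 5 arrays, 9.68, lay from 2804359 to 2804486, with a fold of 3.82. Beside it was the widest control peak of the arrays, 1380 bp from 2802440 to 2803819, of which siORCA peaks covered 40.9%. Of the other 3 control peaks of this array, 1 was the peak near the end of the window with a fold of 4.21. The remaining ones lay from 2228986 to 2229339 and from 2314538 to 2314637, with folds of 2.65 and 2.65. On chromosome 15 the 3 widest control peaks, of 450, 406 and 391 bp, started at 3753046, 4691625 and 3054945, and siORCA peaks covered 18%, 14.04% and 100% of them.

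The widest siORCA peaks of the other 4 arrays were longer than that of chromosome 13. They were 5637 bp on chromosome 14 from 2490780 to 2496416, 4472 bp on chromosome 15 from 4060830 to 4065301, 4847 bp on chromosome 21 from 4693829 to 4698675 and 4921 bp on chromosome 22 from 5220733 to 5225653. The one on chromosome 15 had control peaks over 10.6% of its length, and the other 3 had none. The siORCA peaks with the highest folds were narrower. They had folds of 5.41 on chromosome 14 (766 bp from 2747310), 5.94 on chromosome 15 (588 bp from 4510293), 4.54 on chromosome 21 (104 bp from 3718471) and 5.79 on chromosome 22 (122 bp from 5696167). Control peaks covered 20.4% of the one on chromosome 15 and none of the other 3.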

How the data were processed

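H3K27me3 ChIP-seq peak lists of 2 libraries were used, 1 per condition. Reads were handled with bcl2fastq, Trimmomatic, Bowtie2 and SAMtools on T2T-CHM13, per the submitters' processing notes, which name no versions. Not given in the sources used here are the peak caller with its settings and background, and what was done with duplicate and multiply aligned reads. The fold (a ratio), the −log10 p and −log10 q and the score of each peak are as the authors deposited them, in 1 broadPeak list per library, not pooled. The score was not used further. The lowest deposited −log10 q was 1.00 in both lists.

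Coordinates are printed from 1. Coverage is the merged length of peaks (Python 3.11.15, numpy 2.4.6, pandas 2.3.3). Unit lengths were searched in 100 bp bins and refined within 1 kb in steps of 10 bp. Copies were aligned by dynamic programming to the chromosome 14 profile. On 5 simulated arrays, each with 1 fixed unit length, unit lengths were recovered within 100 bp. Arrays whose unit length changes along the chromosome, as on chromosome 15, were not simulated.

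The members, lists and limits were chosen with earlier results of these data known. The regions named are every window, all control peaks of a window with 10 or fewer (otherwise the 3 widest), the widest and the highest-fold siORCA peak, and the 3 segments of 1 kb marked in most copies; other peaks, segments and copies were named after their values were seen. Alternatives were limits on q and fold, equal peak numbers, window edges, bins, lags and the unit length.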

Additional observations from a re-analysis of the deposited data

How the results depend on the processing

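No paired analysis was possible because each condition had 1 library, and no library could be left out. The arrays held more siORCA than control peaks under every alternative run. The ratio of peaks was 35.8 as reported, 13.3 with a −log10 q of at least 2 (466 against 35 peaks) and 82.7 with a fold of at least 3 (1902 against 23). The ratio of covered length was 78.4 as reported and 33.01 and 218.0 under the same limits. These limits act on lists with different median folds, and the cause of the shifts was not tested. Unit lengths moved by at most 1 kb, the most on chromosome 15.

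The share of siORCA length in the densest 10 kb moved with its settings. With one unit of 45 kb it was 27.04% on chromosome 13, 34.3% on 21 and 35.2% on 22, where 45 kb is not the length found. With a −log10 q of at least 2 it rose to 74.9% on chromosome 13, 67.7% on 14, 47.3% on 15, 58.6% on 21 and 90.3% on 22; the cause was not tested. The densest 5 kb, a shorter stretch, held 41.5%, 39.1%, 25.02%, 31.4% and 40.5%. Aligned copies gave 54.8% on chromosome 15. The densest 10 kb of the aligned unit held 60 of 61 control peaks with the profile of chromosome 14 or 22 and with copies 36 to 52 kb apart, and 33 of 35 at a −log10 q of at least 2; these were chosen after seeing the data. Without chromosome 22, also chosen so, the ratios were 47.5 for peaks and 111.9 for length. With no depth given, a part of the unit without peaks was not shown to lack the mark.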
